A study of Mus musculus with 2 samples.

Results

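The genes described here are the 6 enzymes and 1 carrier of the urea cycle and the liver glutaminase that feeds it, 8 genes of the 19059 in the count matrices: Cps1, Otc, Ass1, Asl, Arg1, Nags, Slc25a15 and Gls2. They were chosen by name, for their function, and all 8 were measured. They were followed in 1 single-cell library per genotype from mouse liver. One library carries the label AEG-1DMAC, mice in which Mtdh (the gene of AEG-1) was floxed and deleted in myeloid cells by a Cre driven from the lysozyme promoter (LysM/Cre). The other carries the label AEG-1fl/fl, floxed littermates without the Cre. The floxed line was made in the C57BL/6/J background. Both groups were fed the high fat/high sugar diet (HF/HSD) from 7 weeks of age for 20 weeks, and livers were taken at 27 weeks. LysM/Cre is active in macrophages, monocytes and neutrophils, so hepatocytes are outside its stated target. Whether a library holds 1 liver or several is not given in the sources used here, and with 1 library per genotype no difference between the libraries has a replicate check. All values below are therefore levels and ratios with 95% intervals that cover counting error only, and no p-value was computed.

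The urea cycle turns ammonia, which is toxic, into urea, and in mammals the complete cycle runs in hepatocytes. Inside the mitochondrion, NAGS makes N-acetylglutamate, the obligate activator of CPS1. CPS1 joins ammonia and bicarbonate to carbamoyl phosphate, and OTC transfers it to ornithine to give citrulline. SLC25A15 carries ornithine in and citrulline out. In the cytosol, ASS1 condenses citrulline with aspartate, ASL splits the product to arginine and fumarate, and ARG1 releases urea and returns ornithine. GLS2, the liver glutaminase, releases ammonia from glutamine beside CPS1. The liver lobule divides this work: blood enters at the portal tract and leaves at the central vein, periportal hepatocytes take up most ammonia for urea, and pericentral hepatocytes catch the rest as glutamine through glutamine synthetase (Glul).

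The genes lie on 7 chromosomes of the mouse genome (GRCm38, GENCODE gene models): Cps1 at chr1:67123026-67231259 on the plus strand, Otc at chrX:10252305-10321024 on the plus strand, Ass1 at chr2:31470207-31520672 on the plus strand, Asl at chr5:130011258-130029247 on the minus strand, Arg1 at chr10:24915221-24927484 on the minus strand, Nags at chr11:102145513-102149477 on the plus strand, Slc25a15 at chr8:22375551-22398597 on the minus strand and Gls2 at chr10:128194457-128210004 on the plus strand. The probes of the assay target transcripts, and how many probes a gene has is not in the files, so each gene is compared with itself between cell types, zones and libraries and never with another gene.

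Promoters were at hand for 4 of the 8 genes in the RefSeq table used here (GRCm38.p6, 250 bases before to 50 after the start): Otc, Ass1, Slc25a15 and Nags. The 3 printed below are shown because Otc and Ass1 rose toward the portal tract and Nags did not. Slc25a15, which also rose, is not printed. Capitals mark the letters TATAA (TATA box), GGGCGG (GC box), CAAAG (core of the HNF4 motif), TTGCNNAA (C/EBP core) and TGACG (part of the cyclic AMP element), searched on both strands. The Otc promoter is chrX:10252055-10252354, that of Ass1 chr2:31470020-31470319 and that of Nags chr11:102145263-102145562, all on the plus strand.
Otc: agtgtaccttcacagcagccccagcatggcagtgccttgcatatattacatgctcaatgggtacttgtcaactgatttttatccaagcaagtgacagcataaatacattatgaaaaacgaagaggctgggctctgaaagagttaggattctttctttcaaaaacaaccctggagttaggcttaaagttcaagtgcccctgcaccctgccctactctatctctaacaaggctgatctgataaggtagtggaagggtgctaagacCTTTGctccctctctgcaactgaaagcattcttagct
Ass1: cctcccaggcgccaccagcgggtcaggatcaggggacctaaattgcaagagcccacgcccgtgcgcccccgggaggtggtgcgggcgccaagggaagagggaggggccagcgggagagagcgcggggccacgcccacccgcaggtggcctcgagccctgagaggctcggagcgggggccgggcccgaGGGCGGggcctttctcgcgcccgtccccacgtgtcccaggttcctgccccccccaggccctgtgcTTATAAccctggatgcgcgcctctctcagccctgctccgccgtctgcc
Nags: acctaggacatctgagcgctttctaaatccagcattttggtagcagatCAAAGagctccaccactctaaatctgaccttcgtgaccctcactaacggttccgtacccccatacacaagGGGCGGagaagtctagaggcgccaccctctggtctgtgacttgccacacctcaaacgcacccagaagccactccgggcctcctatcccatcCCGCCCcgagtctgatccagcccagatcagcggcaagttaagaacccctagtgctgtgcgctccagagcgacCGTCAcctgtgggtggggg

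Otc held 1 CAAAG after its start and no GC box, and 44.3% of its bases were G or C. Ass1, with 74.0% G or C, held 1 GC box at -63 from its RefSeq start. That start lies downstream of the start of the gene model given above, and the GC box begins at the latter. After its RefSeq start Ass1 held a TATAA that matched on both strands, since TTATAA reads the same either way. Nags held 2 GC boxes and 1 CAAAG before its start and 1 TGACG after it. Over the 32851 promoters of this length in the table, 24.9% held TATAA, 35.7% GGGCGG, 53.9% CAAAG, 10.8% TTGCNNAA and 20.8% TGACG. The 3 promoters had no single one of these motifs in common, and a match describes letters only.

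The library labelled AEG-1DMAC held 2581 cells with a median of 12742 counts and that labelled AEG-1fl/fl 3535 cells with a median of 7686, and 10 cell barcodes occurred in both. Total counts were 79589511 and 90440089. Cell types were set by marker lists, and 1090 and 1053 cells passed as hepatocytes, with median counts of 29002 and 30419. The 10 hepatocyte marker genes (Alb, Apoa1 and others), which the gates themselves used, took 14.8% of hepatocyte counts in either library and 1.76% to 4.17% of the counts of macrophages, endothelial, stellate, T and NK, B cells and cholangiocytes. The targeted gene went against the labels. Mtdh in macrophages gave 167 counts in 146 cells, or 159 CPM (counts per 1000000 counts of those cells), in the library labelled AEG-1DMAC and 76 counts in 516 cells, 18.7 CPM, in the library labelled AEG-1fl/fl. Where the probes lie relative to the deleted exons is not known here. In hepatocytes, outside the target of the Cre, Mtdh was at 62.4 and 58.5 CPM. Gated macrophages were 5.66% and 14.6% of all cells. The libraries are therefore named by label throughout, and every direction between them is a direction between labels.

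In hepatocytes, each of the 8 genes was at a higher level than in any of the 6 other cell types compared in the same library. Cps1 had 1429.8 CPM in the library labelled AEG-1DMAC and 1391 in that labelled AEG-1fl/fl, against 162 to 517 CPM over the 6 other types and both libraries. Ass1 had 2653 and 1719 CPM in hepatocytes and 281 to 715 elsewhere. Arg1 had 967 and 795 CPM, against 121 to 348. For these 3 the hepatocyte level of either library was above every other type of both.

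The less counted genes behaved alike. Otc had 243 and 174 CPM in hepatocytes and 26.9 to 132 in the other types, Asl 399 and 378 against 52.7 to 176, and Slc25a15 194 and 174 against 17.5 to 114. Gls2 had 147 and 96.9 CPM in hepatocytes and up to 46.0 elsewhere, with no count in B cells, where 3 counts would have been 79.1 and 61.8 CPM. Nags, the enzyme with the lowest count of the 8, had 26.1 CPM (1538 counts) and 27.1 CPM (1680 counts) in hepatocytes, and at most 10.3 elsewhere. It had no count in T and NK or B cells, where 3 counts would have been 40.4 and 13.1 CPM and 79.1 and 61.8 CPM, so that, except in T and NK cells of the library labelled AEG-1fl/fl, a lower level than in hepatocytes was not detectable there. The intervals of hepatocytes and another type met for Otc in B cells of both libraries, for Nags in B cells of both and in stellate cells, cholangiocytes and T and NK cells of the library labelled AEG-1DMAC, and for no other gene.

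**Figure D1:**
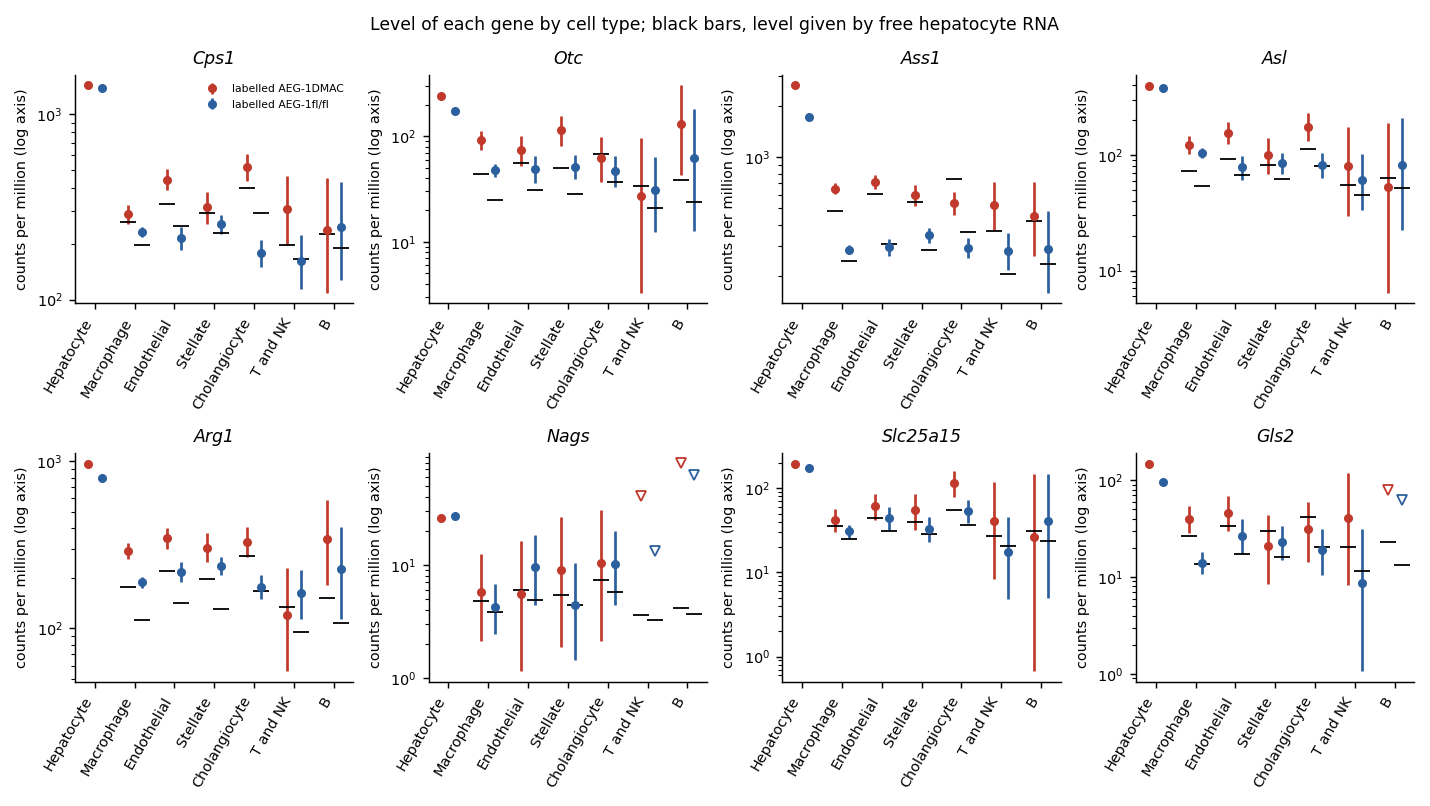
Level of each of the 8 genes (vertical axis, CPM, log axis) in 7 cell types of each library, with 95% exact Poisson intervals. Red points are the library labelled AEG-1DMAC and blue points that labelled AEG-1fl/fl. Black bars are the level expected from the share of hepatocyte marker counts in that type, called free hepatocyte RNA. Open triangles are the level of 3 counts where none was seen. Hepatocytes stand highest for every gene with counts (Ass1 at 2653 and 1719 CPM against at most 715), and most other points lie on or up to about 2 times above the black bars.

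Counts in the other cell types were set against what hepatocyte RNA carried into them would give, called free hepatocyte RNA here. In droplet data, RNA released from broken cells can be counted with other cells, and hepatocyte RNA is the most abundant here. In this assay the tissue was fixed and the cells were washed after the probes were bound. Empty droplets were not examined and no doublet caller was run. Whether hepatocyte counts in the other types came from free RNA, attached fragments or doublets was not tested. For each type an expected count was taken from the gene's hepatocyte count and the share of hepatocyte marker counts in that type. In macrophages Cps1 had 303 counts against 274 expected in the library labelled AEG-1DMAC (ratio 1.11, interval 0.98 to 1.24) and 940 against 803 in that labelled AEG-1fl/fl (1.17, 1.097 to 1.248). Over the 8 genes the ratio in macrophages ran from 1.02 to 2.08. For scale, each hepatocyte marker set against the other 9 had a ratio between 0.80 and 1.40 in macrophages, up to 1.498 in stellate cells, 1.54 in T and NK cells and 3.24 in cholangiocytes.

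Arg1, which is also widely used as a marker of alternatively activated macrophages, was above the expected count in macrophages by 1.65 times (1.47 to 1.85; 306 counts) and 1.67 times (1.55 to 1.79; 766 counts). It was above it in other types too: by 1.57 and 1.54 times in endothelial cells, 1.54 and 1.82 times in stellate cells, and 2.24 and 2.10 times in B cells, where it rested on 13 and 11 counts. In T and NK cells the ratios were 0.91 and 1.71, and in cholangiocytes 1.22 and 1.07. A count of Arg1 was seen in 69.9% and 56.8% of macrophages, 10 of 20 and 6 of 26 B cells, and 27.3% and 39.2% of T and NK cells. Median counts per cell were 5387 and 5691.5 in macrophages, 1844 and 1709.5 in B cells and 3091.5 and 2648 in T and NK cells. With every cell thinned to 1500 counts, which left 133 and 471 macrophages, 13 and 19 B cells and 21 and 69 T and NK cells, the shares were 32.0% and 22.9% of macrophages, 48.4% and 21.2% of B cells and 19.2% and 24.1% of T and NK cells. In both libraries the thinned macrophage share lay between those of the lymphocyte types, which are few cells here. Whether macrophages themselves express Arg1 was not tested.

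Over the 6 types, Otc and Asl were the other genes at least 1.5 times above the expected count in the same type in both libraries, which made 3 of 8 with Arg1. Of the 12003 genes tested, 95.6% were that far above it in 1 or more of the 6 types and 85.4% in macrophages. That background includes genes that the other types express themselves, so a lower share among hepatocyte genes says nothing about the 8. Dendritic cells (10 and 26) and neutrophils (3 and 23) were not among the 6 types, and in dendritic cells Slc25a15 had ratios of 1.77 and 2.46 on 3 and 8 counts. Otc reached 2.08 and 1.93 times in macrophages, 2.31 and 1.81 times in stellate cells and 3.43 and 2.62 times in B cells (5 and 3 counts). Asl reached 1.69 and 1.93 times in macrophages. These ratios depend on the gate: without the limit on hepatocyte marker counts in the other types, none of the 8 genes was 1.5 times above the expected count in both libraries.

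Along the lobule the genes split into 7 that rose from the central to the portal side and Nags, which did not. Hepatocytes of each library were ranked by Cyp2f2 (periportal) against Cyp2e1 (pericentral) counts, neither of which is one of the 8 genes, and divided into 3 zones of 351 to 364 cells (pericentral, midlobular, periportal) and into 10 bins. All 7 (Cps1, Otc, Ass1, Asl, Arg1, Slc25a15 and Gls2) were at least 1.5 times higher in the periportal than in the pericentral zone in both libraries. Over all 10706 genes tested, 2.27% were that much higher and 8.29% that much lower in both libraries, and none of the 8 was that much lower. The median log2 ratio of periportal over pericentral was 1.15 and 1.54 for the 8 genes and -0.32 and -0.22 for all genes. Hepatocyte marker counts moved with the zones too, at 12.4%, 13.2% and 17.9% of counts from pericentral to periportal in the library labelled AEG-1DMAC and 13.3%, 13.8% and 16.7% in that labelled AEG-1fl/fl. Their part in the result was not tested.

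Gls2, the ammonia-releasing enzyme, had the steepest profile of the 8. It rose from 31.8 CPM in the pericentral zone through 122 to 257 in the periportal zone of the library labelled AEG-1DMAC. The library labelled AEG-1fl/fl gave 12.6, 55.4 and 201 CPM. The zone ratio was 8.07-fold (log2 3.01, 2.89 to 3.14) in the former and 16.02-fold (log2 4.002, 3.83 to 4.18) in the latter. Between the outermost of the 10 bins it rose from 19.3 to 288 CPM and from 7.03 to 233 CPM.

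Among the mitochondrial steps, Cps1, the entry enzyme, went from 796 through 1529 to 1868 CPM in the library labelled AEG-1DMAC and from 655 through 1185 to 2209 CPM in that labelled AEG-1fl/fl, log2 ratios of 1.23 (1.20 to 1.26) and 1.75 (1.73 to 1.78). Unlike the other 6 zoned genes, it did not peak in the outermost bin: its top was 1994 CPM in bin 8 of the former, with 1716 in bin 10, and 2253 CPM in bin 9 of the latter, with 2179 in bin 10. Otc, the second step, went from 154 through 234 to 321 CPM and from 101 through 157 to 253 CPM, log2 ratios of 1.06 (1.0001 to 1.12) and 1.33 (1.26 to 1.40). Slc25a15, the ornithine carrier, had the flattest rise of the 7, from 147 through 183 to 241 CPM and from 133 through 145 to 229.8 CPM, log2 ratios of 0.72 (0.65 to 0.78) and 0.79 (0.73 to 0.86). It was near level over bins 1 to 5 in both libraries, at 134 to 163 and 126 to 138 CPM.

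The cytosolic enzymes rose from zone to zone. Ass1 went from 1239 through 2597 to 3829 CPM in the library labelled AEG-1DMAC and from 763 through 1454 to 2779 CPM in that labelled AEG-1fl/fl, log2 ratios of 1.63 (1.61 to 1.65) and 1.86 (1.84 to 1.89). Arg1 went from 457 through 917 to 1412 CPM and from 358 through 684.1 to 1275 CPM, log2 ratios of 1.63 (1.59 to 1.66) and 1.83 (1.80 to 1.87). Asl, between them in the cycle, rose less, from 257 through 407 to 507 CPM and from 252 through 339 to 521 CPM, log2 ratios of 0.98 (0.93 to 1.03) and 1.05 (1.003 to 1.09). Within each library the intervals of Ass1 and Arg1 met each other and not those of Asl.

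Nags, which makes the activator of CPS1, showed no such gradient. It had 29.1, 25.4 and 24.3 CPM from pericentral to periportal in the library labelled AEG-1DMAC and 29.6, 24.4 and 26.2 CPM in that labelled AEG-1fl/fl, on 354 to 685 counts per zone. The log2 ratio was -0.26 (-0.43 to -0.09) and -0.18 (-0.34 to -0.02), near the all-gene medians of -0.32 and -0.22, and with counts scaled by the median gene it turned to 0.07 and 0.05. Its highest bin in both libraries was bin 1, at 33.5 and 33.4 CPM, against 22.0 to 27.8 CPM in the other 9 bins of both. Across hepatocytes with at least 20000 counts, Nags had a Spearman's rho of 0.18 and 0.17 with total counts per cell. The part of depth in the bin 1 level was not tested.

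**Figure D2:**
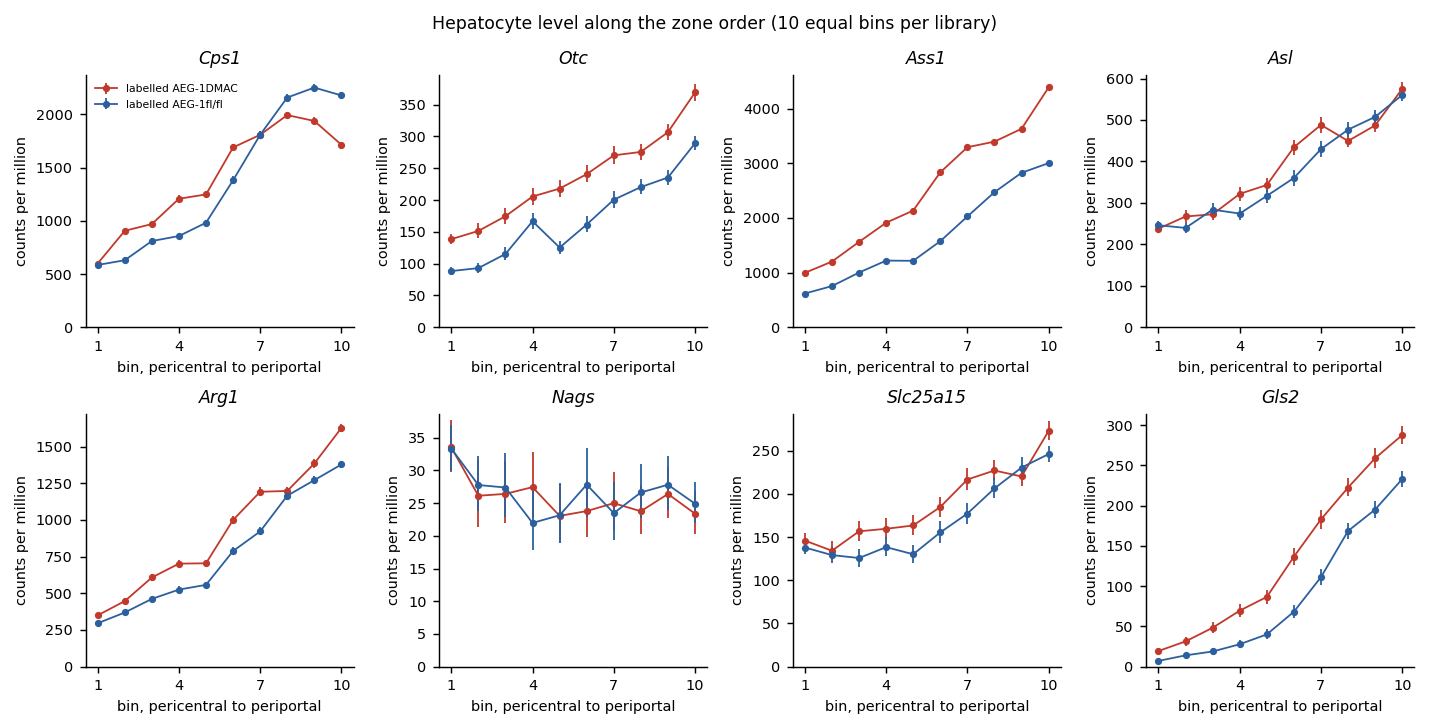
Hepatocyte level (vertical axis, CPM) in 10 equal bins of cells from pericentral (1) to periportal (10), per gene and library, with 95% exact Poisson intervals. Red is the library labelled AEG-1DMAC and blue that labelled AEG-1fl/fl. All genes but Nags climb, Cps1 turns down at the periportal end (1716 CPM in bin 10 against 1994 in bin 8, red), and Nags stays between 22.0 and 33.5 CPM.

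Across hepatocytes with at least 20000 counts, 720 and 673 cells, Spearman's rho with the zone order was 0.746 and 0.743 for Gls2, 0.712 and 0.689 for Ass1 and -0.13 and -0.014 for Nags, a description over cells of 1 library each.

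Profiles of the 7 zoned genes were near parallel. Over the 20 bins of both libraries (log2 of CPM plus 5, centred within library) Pearson's r between pairs of the 7 ran from 0.875 (Slc25a15 with Cps1) to 0.996 (Arg1 with Ass1), and Nags had r of -0.28 to -0.53 with each of them. These values describe bins that share cells and the ranking, and any zoned genes correlate across them. Of 6234 genes with at least 1000 hepatocyte counts in each library, the most alike to Gls2 was Gldc, of glycine cleavage (0.992), to Asl Sds, serine dehydratase (0.991), to Arg1 Pck1, of gluconeogenesis (0.988), and to Ass1 Uroc1, of histidine breakdown (0.987). Cps1 was most like Hamp, which encodes hepcidin (0.981), Slc25a15 most like Got1, cytosolic aspartate aminotransferase (0.978), and Otc most like Hsd11b1, which regenerates glucocorticoid (0.970). Hal, histidine ammonia-lyase, was among the 3 most alike genes for Cps1, Ass1, Asl, Arg1 and Gls2. For Nags the values were lower, with Nat8f2 first (0.845), then Cdo1, of cysteine oxidation (0.828).

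Between the libraries, the question was whether the urea cycle genes of hepatocytes differed with the genotype label on HF/HSD. Of the 8 genes, 3 were at least 25% higher in the library labelled AEG-1DMAC (Ass1, Gls2 and Otc) and none was that much lower, where 12.9% of the 12003 genes tested were that much higher and 13.2% that much lower. Over all 8 genes the median log2 ratio was 0.22, against 0.03 for all genes with quartiles of -0.16 and 0.19. With 1 library per genotype, a difference between livers, tissue handling or genotype cannot be told apart.

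Ass1 had the highest ratio, at 2653 CPM (156131 counts) in the library labelled AEG-1DMAC and 1719 CPM (106684 counts) in that labelled AEG-1fl/fl, a log2 ratio of 0.63 (0.61 to 0.64). Gls2 stood at 147 and 96.9 CPM (8623 and 6013 counts), 0.60 (0.55 to 0.64), an interval that met that of Ass1, and Otc at 243 and 174 CPM (14302 and 10773 counts), 0.49 (0.45 to 0.52). These 3 were higher at every depth. When hepatocytes of each library were divided into 4 groups by total counts, Ass1 ran from 2288 to 2828 CPM and from 1476 to 1812 CPM, Gls2 from 130.05 to 154 and from 82.8 to 102, and Otc from 217 to 251 and from 165 to 178, with no overlap between libraries. Per cell, the median hepatocyte had 2234 CPM of Ass1 in the library labelled AEG-1DMAC, with 10th and 90th percentiles of 555 and 4380.0, and 1225 CPM, 191 and 3323, in the other, so single cells of the libraries overlapped widely.

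The remaining 5 differed less. Arg1 was at 967 and 795 CPM, a log2 ratio of 0.28 (0.26 to 0.30), and Slc25a15 at 194 and 174 CPM, 0.16 (0.12 to 0.20). Asl stood at 399 and 378 CPM, 0.08 (0.05 to 0.10), and Cps1 at 1429.8 and 1391 CPM, 0.04 (0.03 to 0.05). The value of Cps1 depended on the weighting and scaling: its log2 ratio was 0.18 with each cell counted equally, 0.19 without the hepatocytes above the 90th percentile of counts and 0.01 with median-of-ratios scaling. Nags, at 26.1 and 27.1 CPM, had a log2 ratio of -0.05 whose interval of -0.15 to 0.05 held 0.

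Within zones the libraries differed unevenly. Median counts per cell also differed, at 29602.5, 24425 and 33635 from pericentral to periportal in the library labelled AEG-1DMAC and 44116, 20740.0 and 33899 in the other, and their part in the result was not tested. Gls2 was 1.34 log2 units higher in the library labelled AEG-1DMAC in the pericentral zone (1.14 to 1.55; 31.8 against 12.6 CPM, 597 and 290 counts), 1.13 in the midlobular zone (1.014 to 1.252) and 0.35 in the periportal zone (0.30 to 0.41). Ass1 had log2 ratios of 0.70, 0.84 and 0.46 and Otc 0.61, 0.58 and 0.35 in the same order. Arg1 had 0.35, 0.42 and 0.15. For each of these 4 the periportal interval lay below both others.

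Cps1 changed direction along the lobule: it was higher in the library labelled AEG-1DMAC in the pericentral (log2 ratio 0.28, 0.25 to 0.32) and midlobular zones (0.37, 0.34 to 0.40) and lower in the periportal zone (-0.24, -0.26 to -0.22; 1868 against 2209 CPM). In the 4 groups by total counts, Cps1 was at 1462, 1584, 1336 and 1433 CPM from shallow to deep in the library labelled AEG-1DMAC. The other library gave 1169, 1334, 1239 and 1462 CPM, so the direction turned in the deepest group. The ratios between libraries within zones were not recomputed without the deepest hepatocytes, and the part of depth was not tested. The periportal sign held with the zones cut at the same Cyp2f2 against Cyp2e1 values in both libraries (-0.22). It also held with an order from 10 other zoned genes (-0.12). Asl had 0.03, 0.26 and -0.04, the last turning to 0.01 with that other order, and Slc25a15 had 0.14, 0.34 and 0.07. The intervals of Nags held 0 in each zone, though with the other order its midlobular ratio was -0.24 (-0.43 to -0.06). The periportal over pericentral ratio was lower in the library labelled AEG-1DMAC for Cps1, Otc, Ass1, Arg1 and Gls2, with intervals that did not meet, and this direction held with the other order and with counts scaled by the median gene. For Asl and Slc25a15 the intervals met. The ranking genes were flatter in that library as well, with log2 zone ratios of 4.84 against 5.82 for Cyp2f2 and -2.75 against -3.08 for Cyp2e1, and the median rank value (log2 of Cyp2f2 over Cyp2e1) of its periportal zone was 0.42 against 1.34. Their part in the result was not tested.

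**Figure D3:**
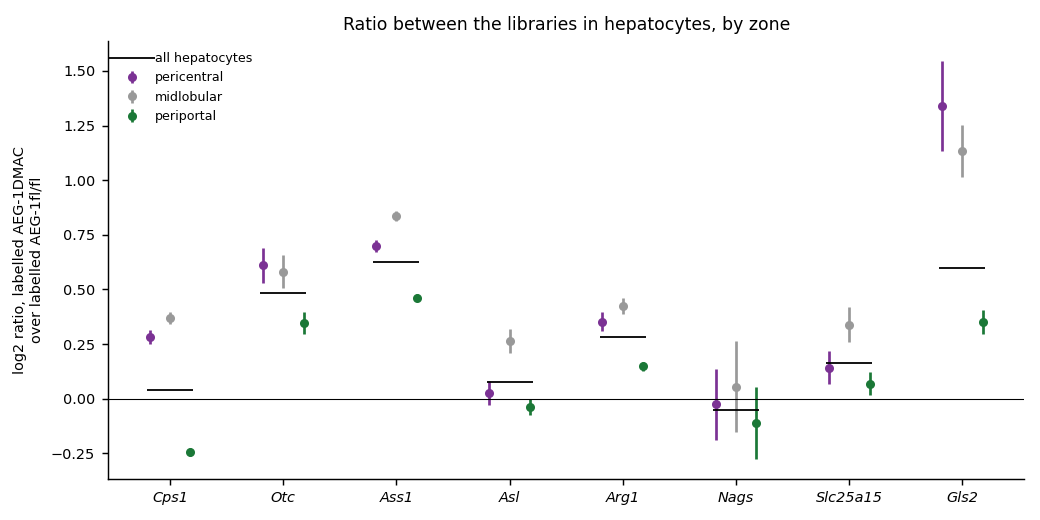
Log2 ratio of hepatocyte level, library labelled AEG-1DMAC over that labelled AEG-1fl/fl (vertical axis), for the 8 genes in the pericentral, midlobular and periportal zone (points with 95% exact intervals of the count ratio) and in all hepatocytes (black bars). Gls2 spans 1.34 to 0.35 from pericentral to periportal, and Cps1 crosses 0 to -0.24 in the periportal zone.

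The pathway around the cycle was read from 46 further genes listed by role, of which 45 were measured and 41 had at least 50 hepatocyte counts. Of these 41, 9 were at least 25% higher in the library labelled AEG-1DMAC and 3 that much lower. Over the 12003 genes tested, 12.9% were that much higher and 13.2% that much lower. Between zones, 2 of 39 were at least 1.5 times periportal and 7 that much pericentral in both libraries. The shares over the 10706 genes tested were 2.27% and 8.29%. By role, the carriers and transporters had 5 of 12 higher and none lower, ammonia and glutamate supply 3 of 11 higher and 2 lower, bicarbonate supply and fumarate use 1 of 3 higher, other users of arginine or ornithine none of 5 higher and 1 lower, and regulators none of 10 either way. The medians by role ran from -0.06 for regulators to 0.29 for bicarbonate supply and fumarate use. Of the 5 higher carriers and transporters, 1 rested on 41 and 30 counts, with an interval of -0.19 to 1.26 that held 0. Each role holds at most 12 tested genes, so the counts by role are a description only.

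Among the 41 pathway genes with enough counts, the pericentral side of ammonia handling held the widest differences. The pericentral ranking gene Cyp2e1 was also higher in the library labelled AEG-1DMAC, at 6789, 4354 and 1008 CPM from pericentral to periportal. The other library gave 5313, 2614 and 629 CPM. Median rank values of the midlobular and periportal zones were -3.50 and 0.42, against -3.17 and 1.34 in the other library. The part of zone make-up in the ratios below was not tested. Oat, which degrades ornithine, was at 763 CPM in hepatocytes of the library labelled AEG-1DMAC and 166 CPM in the other, a log2 ratio of 2.20 (2.17 to 2.23). Glul, glutamine synthetase, was at 799 and 420.2 CPM, 0.93 (0.91 to 0.95). Slc1a2, a glutamate transporter, was at 248 and 107 CPM, 1.22 (1.17 to 1.26), and Rhbg, an ammonia transporter, at 26.3 and 12.7 CPM, 1.04 (0.92 to 1.17).

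All 4 were steeply pericentral in both libraries, with log2 periportal over pericentral ratios of -4.10 and -4.22 for Oat, -4.28 and -3.89 for Glul, -5.13 and -5.74 for Slc1a2 and -4.54 and -3.85 for Rhbg. In bin 1, Oat stood at 2402 and 568 CPM and Glul at 2493 and 1414 CPM, and in bin 10 Oat stood at 47.5 and 11.6 CPM. Prodh, proline dehydrogenase, was at 483 and 308 CPM (log2 ratio 0.65, 0.62 to 0.68) and pericentral by -1.65 and -0.75. Aldh18a1, of proline and ornithine synthesis, was lower in the library labelled AEG-1DMAC on 101 and 166 counts (-0.64, -1.01 to -0.27). It stood at 1.72 and 2.67 CPM in hepatocytes, against 51.4 and 40.2 CPM in macrophages. The part of RNA from other cell types in its ratio was not tested. On the periportal side, Got1, which can supply aspartate to ASS1, had zone ratios of 1.67 and 1.92 like those of Ass1 and a library ratio of 0.02 (-0.02 to 0.06). Aqp9, a channel for glycerol and urea, was pericentral by -1.33 and -1.07.

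The other arginase had another cell distribution than Arg1, and was chosen for naming after its values were seen. Arg2, the mitochondrial arginase, had 0.374 and 0.177 CPM in hepatocytes (22 and 11 counts) and 16.2 and 13.6 CPM in macrophages (17 and 55 counts). It had 20.7 and 3.79 CPM in cholangiocytes, on 6 and 3 counts.

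**Figure D4:**
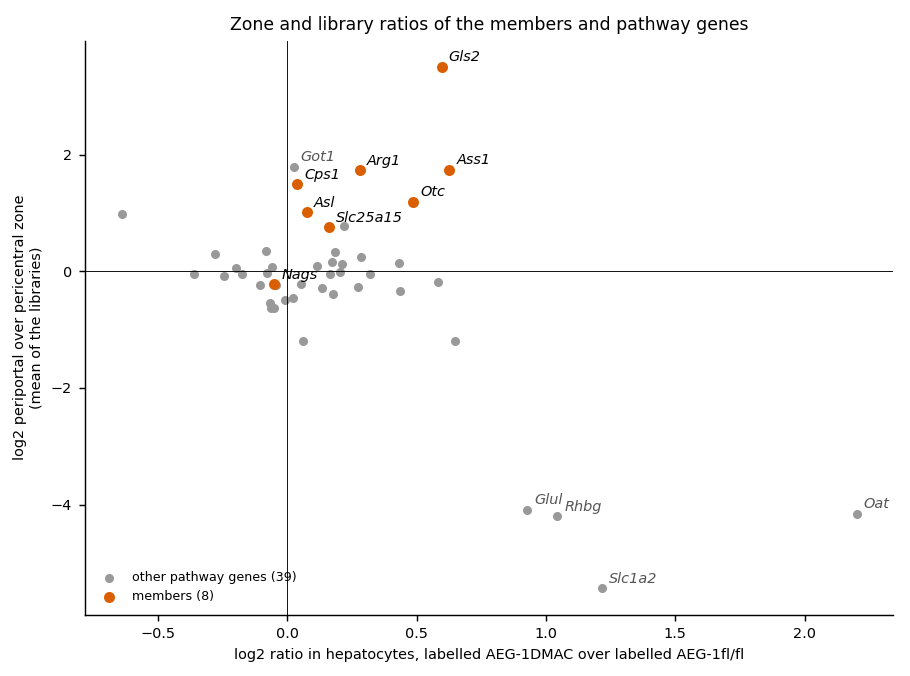
Log2 ratio between the libraries in hepatocytes (horizontal axis, labelled AEG-1DMAC over labelled AEG-1fl/fl) against the log2 periportal over pericentral ratio (vertical axis, mean of the libraries) for the 8 genes (orange) and 39 other pathway genes (grey), without error bars. Gls2 lies at the periportal top, and Glul, Oat, Slc1a2 and Rhbg lie in the pericentral corner with library ratios of 0.93 to 2.20.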

How the data were processed

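The authors deposited counts per gene and cell for both libraries, made with Cell Ranger 7.1.0 (per the labels' processing notes and the matrix headers) from a probe kit for fixed RNA on mm10, with no normalization. Barcodes under 100 detected genes or above 10% mitochondrial counts were dropped, which left 2571 of 2581 and 3508 of 3535. Cell types were set by marker lists with thresholds chosen after seeing the data: a cell took a nonparenchymal type when that list alone passed its threshold per 10000 counts with 2 or more markers and 3 or more counts, and hepatocyte markers took at most 6% of counts. A hepatocyte had all such scores below 50% of threshold, hepatocyte markers of at least 2.5% and at least 5000 counts. Cells left out of every type were 160 and 292 that passed 2 or more lists, 496 and 569 that passed 1 list with high hepatocyte RNA, and 409 and 467 that passed none, and 134 and 122 cells lay near the hepatocyte limit. No doublet caller was run.

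Counts were summed per type, zone and library as CPM of those cells, with exact Poisson intervals, and ratios have exact Clopper-Pearson intervals given the sum of both counts. Genes with at least 50 counts over both libraries, or over both outer zones, form the background. Zones follow the rank of log2 of Cyp2f2 plus 1 over Cyp2e1 plus 1 in raw counts. Thinned shares are the expected shares of cells with a count after drawing 1500 counts from each cell of at least that depth. The 8 genes are named in full. Of the pathway list, all are counted, and those past 1.5-fold between libraries or 2-fold between outer zones in both libraries are named. The genes and lists were chosen with earlier results of these data known. Work was done in Python (3.11.15) with pandas (2.3.3) for tables, SciPy (1.17.1) for intervals, NumPy (2.4.6) for sums and matplotlib (3.10.9) for plots. The ratio and interval functions were tested on simulated counts.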

Additional observations from a re-analysis of the deposited data

How the results depend on the processing

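Over 14 alternatives to gates, filters, scaling and zone order, the count of genes at least 25% apart between libraries was 3 of 8 in each of the 7 that bear on it, and the count at least 1.5 times periportal was 7 of 8 in each of the 7 that bear on that. The median log2 ratio of the 8 genes was 0.19 with median-of-ratios scaling. The count of genes at least 1.5 times above free hepatocyte RNA, 3 of 8, was 6 when Alb alone set the scale and 0 with no limit on hepatocyte markers in the nonparenchymal gates, an alternative chosen after seeing the data, as was median-of-ratios scaling between zones. No value of a single gene past its fold threshold changed sign. Of the others, the zone ratios of Nags turned to 0.07 and 0.05 with median-of-ratios scaling, its library ratio turned to 0.01 without the deepest hepatocytes, and with the other zone order Nags turned in the pericentral (0.08) and midlobular (-0.24) zones and Asl in the periportal zone (0.01). The cause was not tested. Leaving out hepatocytes above the 90th percentile of counts moved 19 of 24 single values beyond their counting intervals. The other zone order moved 31 of 40, by up to 0.57, and median-of-ratios scaling between zones moved 16 of 16. The remaining alternatives moved smaller shares. Zone values of single genes thus vary with these choices by more than their counting intervals. No paired analysis was possible because each genotype has 1 library, and no replicate could be left out. Depth limits what can be said of Nags outside hepatocytes and of the B and T and NK cells.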
